A study of Mus musculus with 9 samples.

Results

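The nuclear-encoded genes of respiratory complexes II, III and IV, cytochrome c and the ATP synthase (complex V) were examined in livers of mice with nonalcoholic steatohepatitis (NASH). Members were taken by symbol: the Sdh subunit and Sdhaf assembly genes, the Uqcr genes and Cyc1, Cycs, the Cox genes whose symbol goes on with a digit, and the Atp5 genes. This gave 60 of the 24008 genes listed, of which 56 passed the filter on low counts, among 14379 genes that did. By complex, 8 genes belonged to complex II, 10 to complex III, 1 was cytochrome c, 24 belonged to complex IV and 17 carried an Atp5 symbol. They held 44 structural subunits (41 tested) and 12 assembly factors, all tested. The others were Cox7a2l, which joins complexes III and IV, the coupling factor B gene Atp5s, Atp5sl, and the pseudogene Uqcrh-ps1.

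RNA of whole liver pieces was sequenced in 3 groups of 3 libraries, all from mice on a high-fat and high-carbohydrate diet. The Flox group was the control without the muscle deletion and is labelled WT. The F4MKO group lacked IRF4, an interferon regulatory factor, in skeletal muscle, where Myl-Cre, driven by a myosin light chain promoter, deleted a floxed Irf4 gene. The F4MKO + FSTL1 group carried the same muscle deletion and an AAV8 that expressed Flag-tagged FSTL1, a protein secreted by muscle, from the muscle creatine kinase promoter in the gastrocnemius. Per the study's methods the other 2 groups received AAV-GFP in that muscle, and the mice were on a C57BL/6J background. The deletion and the transgene were both in muscle, so liver counts of Irf4 or Fstl1 do not check the labels. Neither the sex nor the age of these mice was in the labels. The labels number the replicates and do not say that they are separate mice, so p-values measure the spread between these libraries, which may be technical.

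Complex II oxidizes succinate as a step of the citrate cycle and passes the electrons to ubiquinone. Complex III hands them to cytochrome c and complex IV to oxygen, and both pump protons across the inner mitochondrial membrane, whose return through complex V drives the synthesis of ATP. All but a few subunits of complexes III to V, and every subunit of complex II, are encoded in the nucleus. Hepatocytes are rich in mitochondria, and the oxidation of fatty acids in a fatty liver feeds this chain.

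Library totals ran from 20656976 to 24322984 counts. TMM factors, which scale the libraries for composition, ran from 1.03 to 1.17 in F4MKO and from 0.927 to 0.955 in F4MKO + FSTL1. With library totals in place of TMM, an alternative chosen after seeing the data, the median of all tested genes shifted to 0.11 in F4MKO against Flox and to -0.18 in F4MKO + FSTL1 against F4MKO on the log2 scale. The library labelled F4MKO replicate 3 stood apart from the other F4MKO libraries in the members' levels. The mean deviation of the 56 members from their mean over the 9 libraries (log2 CPM) was -0.34 and -0.21 in F4MKO replicates 1 and 2 and 0.05 in replicate 3. It was 0.07, -0.02 and 0.13 in Flox and 0.01, 0.08 and 0.24 in F4MKO + FSTL1, so replicate 3 of F4MKO lay within the range of the other groups. F4MKO replicate 1 stood apart in other ways, with the highest TMM factor (1.17, beside 1.03 in both other F4MKO libraries), the lowest member score and, among the 3 F4MKO libraries, the lowest hepatocyte and the highest stellate and cholangiocyte marker sums. Results that rest on either library are given with and without it, or with the range when 1 library was left out.

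Promoter sequences are shown for 3 members: Uqcr11, the member with the smallest adjusted p in F4MKO against Flox, Cox6a1, one of the most abundant members, and Atp5sl, the only member called in a comparison. The sequences are upstream bases of RefSeq promoters on GRCm38.p6, 5′ to 3′ on the gene's strand, cut where the gene begins in GENCODE. A pair of motifs of factors known to act on respiratory genes were searched on both strands of the 250 bases upstream of each start, the palindromic core of the NRF1 motif and the ETS motif CCGGAAGT, bound by GABP. Matches are in capitals, and no match of one overlapped a match of the other in the sequences shown. Uqcr11 (chr10:80406831-80407071, minus strand) held 1 ETS match, Cox6a1 (chr5:115348982-115349208, minus strand) held NRF1 cores at 2 places, and Atp5sl (chr7:25619164-25619413, plus strand) held neither.
Uqcr11: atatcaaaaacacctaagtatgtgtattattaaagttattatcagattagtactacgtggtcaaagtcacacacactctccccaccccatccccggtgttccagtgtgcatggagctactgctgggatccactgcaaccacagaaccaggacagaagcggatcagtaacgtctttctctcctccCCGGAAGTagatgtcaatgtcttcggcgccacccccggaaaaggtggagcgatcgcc
Cox6a1: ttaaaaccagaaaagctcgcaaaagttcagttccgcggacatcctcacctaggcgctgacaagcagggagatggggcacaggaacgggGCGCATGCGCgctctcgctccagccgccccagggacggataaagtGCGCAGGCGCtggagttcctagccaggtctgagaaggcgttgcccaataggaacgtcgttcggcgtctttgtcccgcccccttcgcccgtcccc
Atp5sl: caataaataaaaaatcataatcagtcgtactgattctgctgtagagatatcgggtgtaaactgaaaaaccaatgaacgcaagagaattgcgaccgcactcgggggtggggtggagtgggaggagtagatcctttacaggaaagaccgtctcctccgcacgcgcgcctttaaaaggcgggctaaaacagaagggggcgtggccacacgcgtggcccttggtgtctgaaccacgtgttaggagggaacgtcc
RefSeq promoters were found for 47 of the 60 genes, 52 promoters in all. An NRF1 core lay in 7 of these 52 promoters (13.5%), beside 3.74% of all 32851 promoters. The ETS motif lay in 5 (9.6%), beside 2.88% of all promoters. A match is a description of letters and no evidence of binding.

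Levels between genes were compared per transcript length, as TPM in Flox livers (mean ± SD, n = 3). The most abundant member was Atp5b, the catalytic beta subunit of ATP synthase, at 1408 ± 34.1 TPM. Next came 4 complex IV subunits, Cox6a1 at 1206 ± 44.5 TPM, Cox7c at 1119 ± 57.8 TPM, Cox8a at 1051 ± 58.0 TPM and Cox4i1 at 920 ± 30.7 TPM. The ranges of Cox6a1 and Cox7c overlapped, as did those of Cox7c and Cox8a, whereas Atp5b and Cox4i1 stood clear of their neighbours in this order. In complex III, levels ran from Uqcrb at 663 ± 26.7 TPM down to Uqcrc1, a core protein, at 48.2 ± 6.12 TPM. The complex II subunits lay lower than most subunits of the other complexes, with Sdhb at 299 ± 7.58 TPM, Sdha at 273 ± 32.3 TPM, Sdhd at 161 ± 13.5 TPM and Sdhc at 105 ± 3.32 TPM. Sdhb and Sdha did not differ beyond their spread. Cycs, the electron carrier between complexes III and IV, was at 71.0 ± 5.66 TPM. Assembly factors had lower means than every subunit other than the tissue isoforms, from Sdhaf3 at 1.69 ± 0.171 TPM to Cox14 at 44.6 ± 5.11 TPM, whose range overlapped that of Uqcrc1. Lengths came from 1 GENCODE transcript per gene, so a gene with several transcript ends can be misplaced in this order. Atp5g1, for example, has an annotated length of 4715 bases and came out at 64.8 ± 3.75 TPM.

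**Figure D1:**
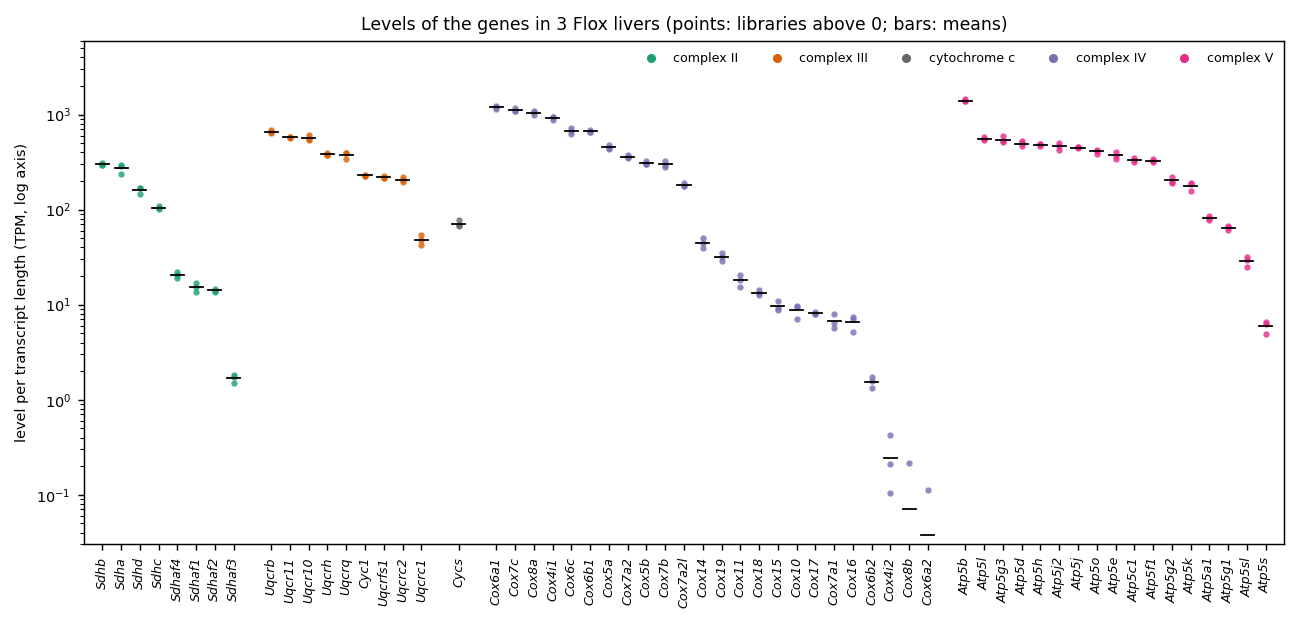
Level of each member listed above 0 in the 3 Flox livers, as TPM on a log axis, ordered within each complex (points are libraries above 0, bars are means). Atp5b stands highest at a mean of 1408 TPM, and the complex IV genes fall into abundant subunits, assembly factors below 50 TPM and tissue isoforms near the bottom.

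Several complex IV subunits have isoforms used in other tissues, and these checked the labelled tissue. Liver-type Cox6a1 was at 1206 TPM in Flox livers, whereas its heart and muscle partner Cox6a2 had 0 to 1 count per Flox library. Cox8a was at 1051 TPM, and Cox8b, its muscle and brown fat partner, was at 0.0712 TPM. Cox4i2, which is used in lung, was at 0.245 TPM beside 920 TPM for Cox4i1, and the testis isoform Cox6b2 at 1.54 TPM beside 668 TPM for Cox6b1. The muscle isoform Cox7a1 was at 6.73 TPM beside 362 TPM for Cox7a2. Of the low isoforms, Cox4i2, Cox6a2 and Cox8b did not pass the filter, nor did Uqcrh-ps1. Cox6a2 had 19 counts in F4MKO replicate 1 and 0 to 4 counts in each other library. The summed CPM (counts scaled to a common library size after TMM) of 6 skeletal muscle markers was 0.878 to 1.72 in every library. Of the c-ring genes of ATP synthase, which encode the same mature protein, Atp5g3 was highest at 545 TPM, then Atp5g2 at 204 TPM and Atp5g1 at 64.8 TPM.

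The comparison of F4MKO with Flox asks how loss of IRF4 in muscle was reflected in the liver. No member passed, while nearly all lay below the Flox level by a small margin. By the quasi-likelihood test of edgeR, adjusted by Benjamini-Hochberg, 0 of 56 members had an adjusted p under 0.05, beside 0.278% of all tested genes. None was called with the added fold threshold of 1.5, beside 0.271%. An unadjusted p under 0.05 was seen for 15 members, and the share over all genes was 16.9%. DESeq2 gave 1 member (1.79%) with an adjusted p under 0.05, Uqcr11, lower in F4MKO, beside 3.07% of all genes in either direction. The log2 fold change was below 0 for 53 of 56 members, beside 50.6% of all tested genes, and its median was -0.25, beside 0.00 for all genes. With library totals the difference between these medians was -0.25 as well, with 46 of 56 members below 0.

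By complex, the median log2 fold change in F4MKO was -0.18 in complex II, -0.28 in complex III, -0.20 in complex IV and -0.27 in complex V, which here counts all 17 genes with an Atp5 symbol. Within complex IV the 12 tested subunits had a median of -0.27 and the 8 assembly factors one of -0.08. Over all complexes the 41 tested subunits were all below 0, with a median of -0.27, and the 12 assembly factors had a median of -0.13. The groups did not overlap in level for 7 members, beside 21.8% of all tested genes. Of these, Uqcr11, Atp5j, Atp5l, Cox7c, Atp5sl and Sdhaf2 were lower in F4MKO and Cox15 was higher. Without F4MKO replicate 3 the members' median was -0.36, and without replicate 1 it was -0.15. In both cases 0 members passed.

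Uqcr11, a small subunit of complex III, had the smallest adjusted p. Its level was 150.4, 134 and 147 CPM in the Flox libraries and 99.3, 109 and 123 CPM in F4MKO. All F4MKO libraries lay below all Flox libraries. The log2 fold change was -0.38 ± 0.11 (SE) with an adjusted p of 0.139 by edgeR, and DESeq2 gave an adjusted p of 0.0455. Furthest below 0 was Atp5e, the epsilon subunit of the F1 head, with 99.9, 75.8 and 89.6 CPM in Flox and 58.2, 58.4 and 81.4 CPM in F4MKO. F4MKO replicate 3 overlapped the Flox range. Its log2 fold change was -0.42 ± 0.16, with an adjusted p of 0.212 by edgeR. In complex II the lowest was Sdhaf1, which helps insert iron-sulfur clusters into SDHB, at -0.39, in complex III Uqcrq, a small subunit, at -0.39, and in complex IV Cox5b, a zinc-binding subunit, at -0.37.

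The 3 members above 0 were Atp5s at 0.25 ± 0.16, Cox15 at 0.16 ± 0.09 and Cox19 at 0.09 ± 0.09. Cox15 makes heme a for complex IV, and its level was 24.7, 27.7 and 25.2 CPM in Flox and 28.3, 29.4 and 28.9 CPM in F4MKO. All 3 F4MKO libraries lay above Flox for this gene, and the adjusted p was 0.392 by edgeR. Core subunits with values close to 0 were the ATP synthase alpha subunit Atp5a1 at -0.08 ± 0.13, the Rieske iron-sulfur protein Uqcrfs1 at -0.12 ± 0.13 and Uqcrc2, a core protein of complex III, at -0.13 ± 0.10.

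**Figure D2:**
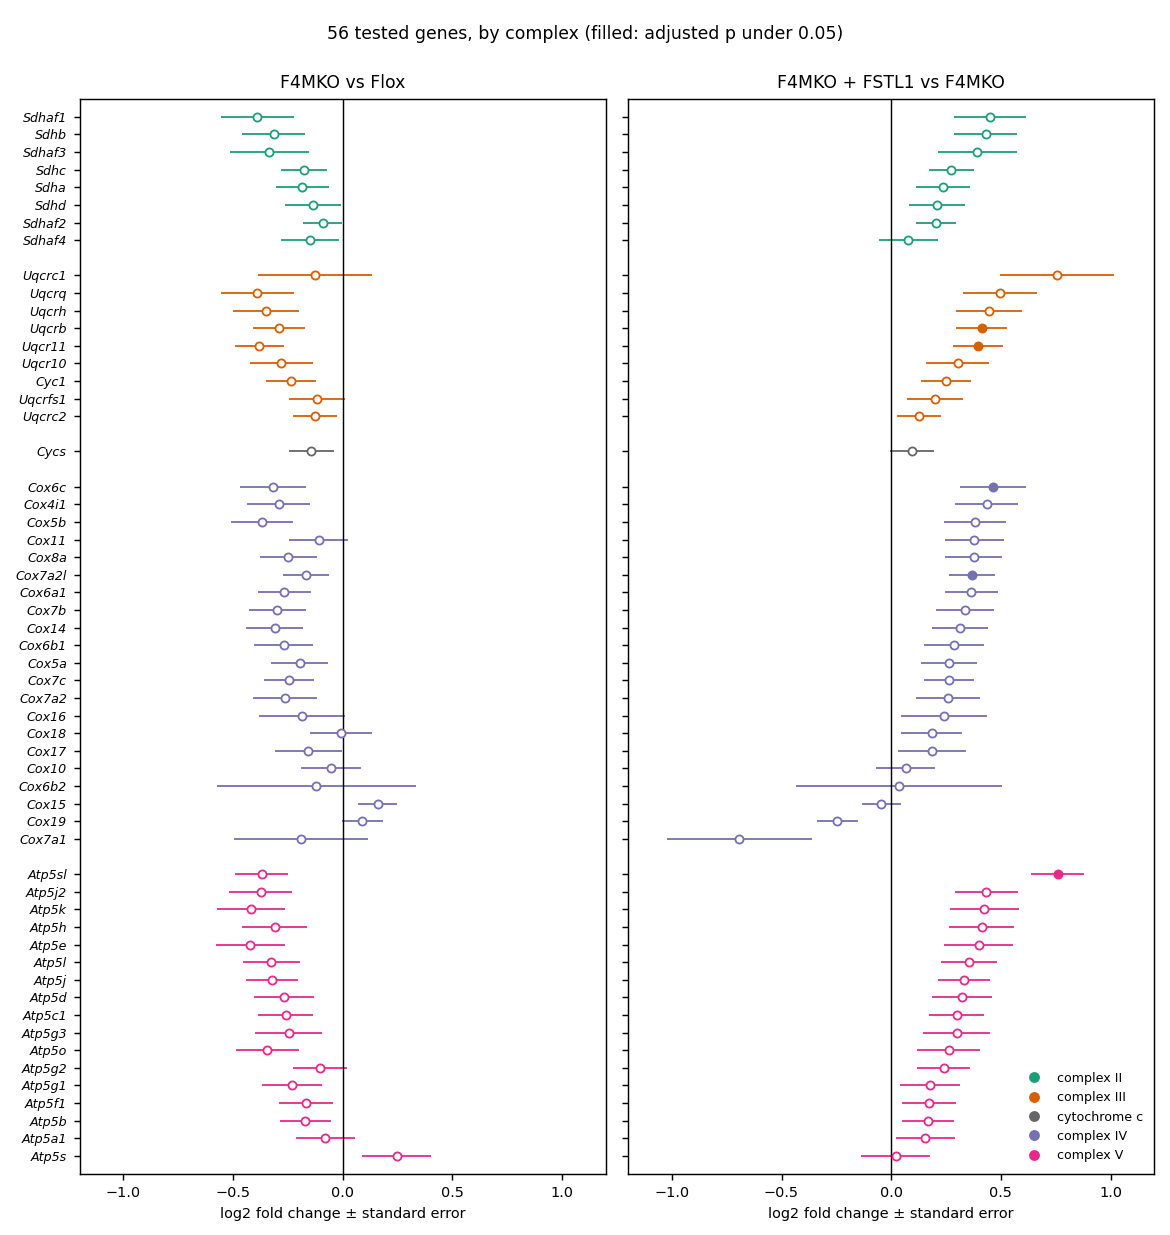
Log2 fold change with its standard error (edgeR) for the 56 tested members, grouped by complex, in F4MKO against Flox (left) and F4MKO + FSTL1 against F4MKO (right), where filled points have an adjusted p under 0.05. On the left 53 of 56 points lie below 0 and none is filled, and on the right 53 lie above 0 and 5 are filled.

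F4MKO + FSTL1 was compared with F4MKO to see what FSTL1 made in muscle added to the liver profile of the knockout. Levels were higher in F4MKO + FSTL1 for 5 members at an adjusted p under 0.05 by the same edgeR test, namely Atp5sl, Uqcrb, Uqcr11, Cox7a2l and Cox6c. This comparison shares the F4MKO libraries with the one before, so a high or low F4MKO library moves both in opposite directions. Of all tested genes, 20.9% had an adjusted p under 0.05 and 7.73% were higher at that threshold, beside 8.93% of the members. The count depended on the test: DESeq2 passed 18 members (32.1%), all higher, where 8.55% of all genes were higher, and edgeR without a filter on low counts passed 15 (25.0%), all higher, where 4.93% of all genes were. Only Atp5sl was called with the fold threshold, where 14.4% of all genes were called and 3.21% were called higher. At an unadjusted p under 0.05 there were 30 members, beside 35.3% of all genes. Values above 0 were found for 53 members, beside 51.4% of all genes, with a median of 0.29 beside 0.01.

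With library totals the median of all genes was -0.18, 41 of 56 members lay above 0 and their median was 0.10, which was 0.29 above the median of all genes. At that scaling 2 members passed, Atp5sl higher and the copper protein gene Cox19 lower. Without F4MKO replicate 3, 29 members (51.8%) had an adjusted p under 0.05 by edgeR, all higher, where 8.44% of all genes were higher, and the median was 0.42. Without F4MKO replicate 1 the median was 0.19. Only Atp5sl (1.79% of the members) passed without F4MKO replicate 1, F4MKO replicate 2, F4MKO + FSTL1 replicate 2 or F4MKO + FSTL1 replicate 3. In these fits 3.3%, 4.66%, 3.59% and 5.93% of all genes were higher, in that order, so the members' share was below that of all genes.

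Atp5sl, also named Dmac2, carries an ATP synthase symbol but is known as a factor in the assembly of complex I. It lies at chr7:25619414-25625551 on mm10 (plus strand), and neither overlapped another gene's exons nor shared a stretch of 100 bases with another transcript. Its level was 34.2, 37.1 and 44.0 CPM in Flox, 25.1, 31.6 and 32.5 CPM in F4MKO and 50.2, 51.1 and 49.6 CPM in F4MKO + FSTL1. The groups did not overlap in any of the comparisons, with F4MKO lowest and F4MKO + FSTL1 highest. It rose by 0.76 ± 0.12 on the log2 scale between F4MKO and F4MKO + FSTL1, with an adjusted p of 0.00228 by edgeR. Over all alternatives its value ran from 0.57 to 0.83 and its adjusted p stayed under 0.05 in each, by edgeR or DESeq2. With library totals the value was the lowest of these, 0.57, which is under the fold threshold, and no member was called.

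Uqcrb, a subunit of complex III next to its ubiquinone site, was at 204, 182 and 213 CPM in Flox, 147, 154 and 189 CPM in F4MKO and 212, 211 and 229 CPM in F4MKO + FSTL1. The last 2 groups did not overlap, and the log2 fold change between them was 0.41 ± 0.12 with an adjusted p of 0.0286 by edgeR. For Uqcr11 the F4MKO + FSTL1 libraries were at 138, 136 and 162 CPM, all above the F4MKO values given before. It rose by 0.40 ± 0.11 on the log2 scale, with an adjusted p of 0.0288 by edgeR. Uqcr11 lies at chr10:80402997-80406830 on the minus strand and shared no exon or 100-base stretch with another gene. Uqcrb lies at chr13:66900617-66905378 on the minus strand and shared 15.8% of its 100-base stretches with other transcripts, so its counts are less certain.

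Cox7a2l, which joins complexes III and IV and is known in C57BL/6 mice in a shortened form, was at 110.1, 101 and 117 CPM in Flox. It was at 93.6, 91.7 and 106 CPM in F4MKO and at 116, 124 and 137 CPM in F4MKO + FSTL1. The F4MKO + FSTL1 libraries all lay above F4MKO, by 0.37 ± 0.10 on the log2 scale, with an adjusted p of 0.0291 by edgeR. Cox6c, a small subunit of complex IV, was at 268, 265 and 308 CPM in Flox, 194, 205 and 276 CPM in F4MKO and 282, 293 and 356 CPM in F4MKO + FSTL1. The last 2 groups again did not overlap. Its rise of 0.47 ± 0.15 on the log2 scale had an adjusted p of 0.0478 by edgeR. Cox7a2l (chr17:83501918-83517330, minus strand) shared 11.7% and Cox6c (chr15:35925886-35938246, minus strand) 7.2% of their 100-base stretches with other transcripts. With library totals, adjusted p was 0.145 for Uqcrb, 0.158 for Uqcr11, 0.253 for Cox7a2l and 0.161 for Cox6c by edgeR, and with a trend in length and GC content removed it was 0.211, 0.155, 0.0872 and 0.105.

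**Figure D3:**
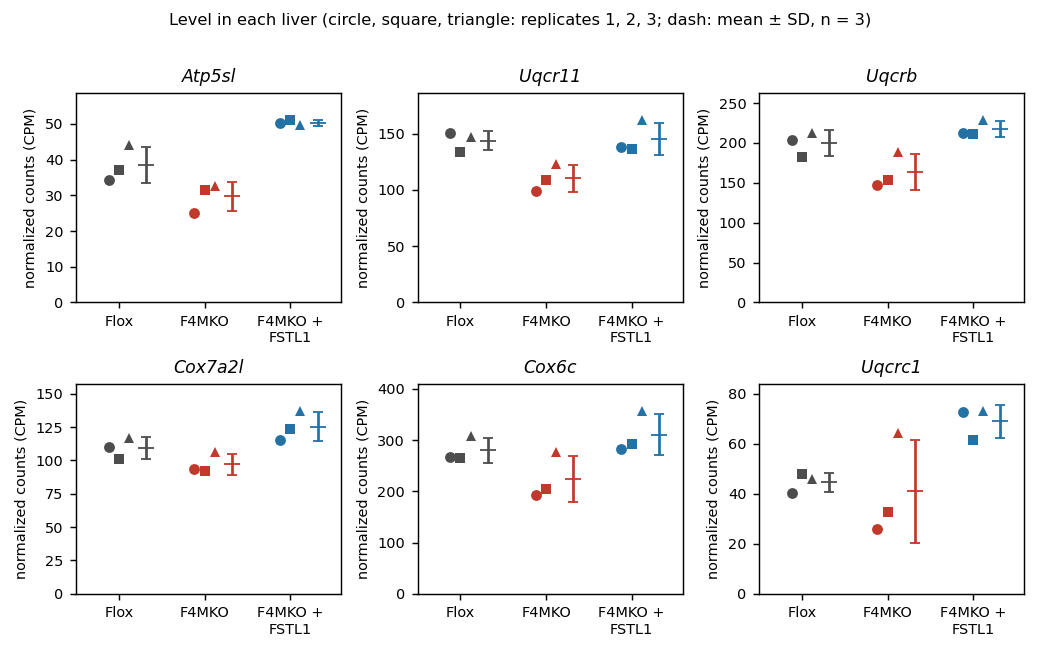
CPM in each library for the 5 members with an adjusted p under 0.05 in F4MKO + FSTL1 against F4MKO and for Uqcrc1, with axes from 0 (circles, squares and triangles are replicates 1, 2 and 3, and dashes are the mean ± SD, n = 3). Atp5sl at about 50 CPM in each F4MKO + FSTL1 library lies clear of the other groups, and in the Uqcrc1 panel F4MKO replicate 3 lies at 64.2 CPM, far above the other F4MKO livers.

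Uqcrc1, a core protein of complex III (chr9:108936633-108949623, plus strand), depended on 1 library. Its level was 40.4, 47.8 and 45.8 CPM in Flox, 25.8, 32.8 and 64.2 CPM in F4MKO and 72.8, 61.4 and 73.1 CPM in F4MKO + FSTL1. F4MKO replicate 3 lay above every Flox library and above 1 F4MKO + FSTL1 library. The log2 fold change between F4MKO and F4MKO + FSTL1 was 0.76 ± 0.26, with an adjusted p of 0.0596 by edgeR and 0.0178 by DESeq2. Without that library it was 1.24 ± 0.14, with an adjusted p of 0.00134 by edgeR. Leaving out 1 library at a time gave values from 0.50 to 1.24, with adjusted p from 0.00134 to 0.188 by edgeR. In F4MKO against Flox the log2 fold change of Uqcrc1 was -0.13 ± 0.26, and from -0.61 to 0.12 when 1 library was left out.

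By complex, the median log2 fold change in F4MKO + FSTL1 was 0.26 in complex II, 0.40 in complex III, 0.26 in complex IV and 0.30 in complex V. With library totals these were 0.07, 0.21, 0.08 and 0.11. Groups did not overlap for 21 members that were higher in F4MKO + FSTL1, where 18.0% of all tested genes did so, and for 1 that was lower, Cox19, beside 21.1%. Of the 21, 4 belonged to complex II, 3 to complex III, 8 to complex IV, and 6 carried an Atp5 symbol, Atp5sl among them. The differences between complexes were not tested, since they share libraries and differ in few genes.

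In complex II, Sdhb, the iron-sulfur subunit, was at 194, 187 and 195 CPM in Flox, 123, 149 and 191 CPM in F4MKO and 207, 192 and 226 CPM in F4MKO + FSTL1. The F4MKO + FSTL1 libraries lay above all F4MKO libraries, the lowest by a margin of less than 1 CPM. Its log2 fold change was 0.43 ± 0.14 with an adjusted p of 0.055 by edgeR. The flavoprotein Sdha was at 0.24 ± 0.12 and the membrane anchors Sdhc and Sdhd were at 0.27 ± 0.10 and 0.21 ± 0.13. Of the assembly factors, Sdhaf1 had the highest value at 0.45 ± 0.17 and Sdhaf4, which acts on SDHA, the lowest at 0.08 ± 0.13. An antisense gene overlaps 69.6% of the annotated exon bases of Sdhaf1, and the strand setting of the counts was not given in the sources used here.

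Below Uqcrc1, the complex III genes ran from Uqcrq at 0.50 ± 0.17 to Uqcrc2 at 0.13 ± 0.10. Cyc1, which holds the heme that reduces cytochrome c, was at 0.25 ± 0.11 without overlap of the groups. Cycs itself was at 0.10 ± 0.10, with 106, 106 and 126 CPM in F4MKO and 119, 112 and 129 CPM in F4MKO + FSTL1. These ranges overlapped.

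In complex IV, Cox4i1, a regulatory subunit, was at 417, 360 and 412 CPM in Flox, 269, 323 and 378 CPM in F4MKO and 379.6, 441 and 492 CPM in F4MKO + FSTL1. The last 2 groups did not overlap, by a narrow margin. Its value was 0.44 ± 0.14 on the log2 scale, with an adjusted p of 0.0524 by edgeR. Cox5b was at 0.38 ± 0.14, Cox6a1 at 0.37 ± 0.12, Cox8a at 0.38 ± 0.13 and Cox5a at 0.26 ± 0.13. Cox11, which delivers copper, was at 0.38 ± 0.13, and 48.3% of its exon bases lie under the antisense gene Tom1l1.

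Lower values were found for 3 members, all of complex IV. Cox7a1, the muscle isoform, had 29, 33 and 41 counts in Flox, 29, 31 and 40 in F4MKO and 12, 14 and 23 in F4MKO + FSTL1. In CPM the ranges of the last 2 groups overlapped. Its log2 fold change was -0.69 ± 0.33 with an adjusted p of 0.159 by edgeR, and with the length and GC trend removed it was -0.93 with an adjusted p of 0.0442. Cox19 was at 49.1, 45.7 and 46.7 CPM in F4MKO and at 40.1, 40.1 and 39.1 CPM in F4MKO + FSTL1, without overlap. Its log2 fold change was -0.25 ± 0.09 with an adjusted p of 0.0847 by edgeR. Cox15 was at -0.05 ± 0.09.

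ATP synthase subunits were all above 0 in F4MKO + FSTL1 against F4MKO, from Atp5a1 at 0.16 to Atp5j2, a membrane subunit, at 0.43. With library totals some of them lay below 0, among them Atp5a1, Atp5b and Atp5g1 at -0.0280, -0.0195 and -0.0132. The 5 subunits of the F1 head had a median of 0.30 and the 10 subunits of the stalks and membrane part one of 0.31. Atp5b was at 1551, 1473 and 1521 CPM in Flox, 1170, 1376 and 1493 CPM in F4MKO and 1485, 1496 and 1557 CPM in F4MKO + FSTL1. F4MKO replicate 3 overlapped the other groups. The log2 fold change of Atp5b was 0.17 ± 0.12 with an adjusted p of 0.335 by edgeR. Of the c-ring genes, Atp5g3 was at 0.30 ± 0.15, Atp5g2 at 0.24 ± 0.12 and Atp5g1 at 0.18 ± 0.14. Atp5g2 shared 86.4% of its 100-base stretches with other transcripts, Atp5l 61.3% and Atp5h 29.5%, so these are uncertain. Antisense genes and a second annotated entry of the same symbol overlap 47.9% of the exon bases of Atp5o. Outside complex V the same limit holds for Cox16, which shared 88.3%, Cox7c, which shared 44.4%, and Cycs, which shared 24.7%.

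**Figure D4:**
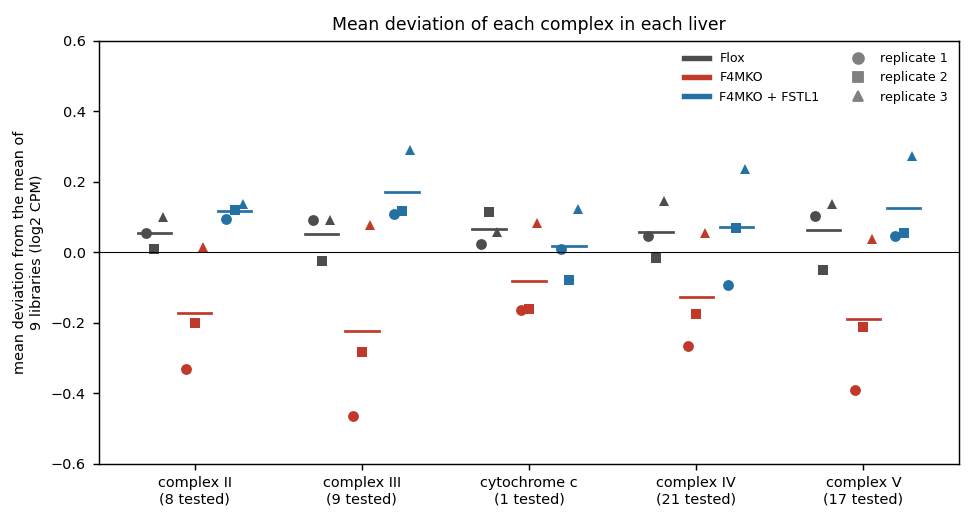
Mean deviation of each complex's tested members from their mean over the 9 libraries (log2 CPM), by group, with a symbol per replicate and a bar at the group mean. F4MKO replicates 1 and 2 lie lowest in each of complexes II to V, down to -0.47 in complex III, and F4MKO replicate 3 lies among the other groups.

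F4MKO + FSTL1 was last compared with Flox, which asks how far the profile with added FSTL1 differed from that of control livers. By edgeR's quasi-likelihood test 0 of 56 members had an adjusted p under 0.05 and 0 were called, beside 0.00695% of all tested genes by either rule. DESeq2 gave 0 members with an adjusted p under 0.05, beside 2.26% of all genes. An unadjusted p under 0.05 was seen for 3 members by edgeR, beside 13.4% of all genes. These were Atp5sl at 0.39 ± 0.12, Uqcrc1 at 0.63 ± 0.26 and Cox7a1 at -0.88 ± 0.33. The median over the members was 0.05, with 46 of 56 above 0 beside 49.9% of all genes, but it was -0.03 with library totals and -0.01 without F4MKO + FSTL1 replicate 3, so no direction is given. By complex the medians were 0.07, 0.08, 0.04 and 0.04 in complexes II, III, IV and V, and with library totals those of complexes II, IV and V fell below 0. Cox19 was at -0.16 ± 0.09, the ATP synthase stalk subunit Atp5o at -0.08 ± 0.14 and Cox11 at 0.27 ± 0.13.

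Many members have short transcripts, and the fold changes of all genes moved with transcript length. In F4MKO against Flox, the 1013 tested genes with transcripts under 1000 bases had a median of -0.16, and those of 4000 bases or more one of 0.06. The 26 members under 1000 bases had a median of -0.29, and the 11 members from 2000 to 4000 bases one of -0.16, beside 0.01 for all genes of that class. In F4MKO + FSTL1 against F4MKO, all genes under 1000 bases had a median of 0.19 and the members among them one of 0.34. From 2000 to 4000 bases these medians were 0.00 and 0.20. In each of the 4 length classes the members' median lay below that of all genes in the first of these comparisons and above it in the second. The class of 4000 bases or more held only 3 members. With a trend in length and GC content removed from all genes, an alternative chosen after seeing the data, the members' median was -0.14 and 0.16 in these 2 comparisons. Under it 3 members passed in F4MKO + FSTL1 against F4MKO by edgeR, Atp5sl and Sdhc higher and Cox7a1 lower. Across the 56 members, length and log2 fold change had r = 0.445 and rho = 0.435 in the first comparison and r = -0.112 and rho = -0.32 in the second. These points share libraries and are not independent.

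**Figure D5:**
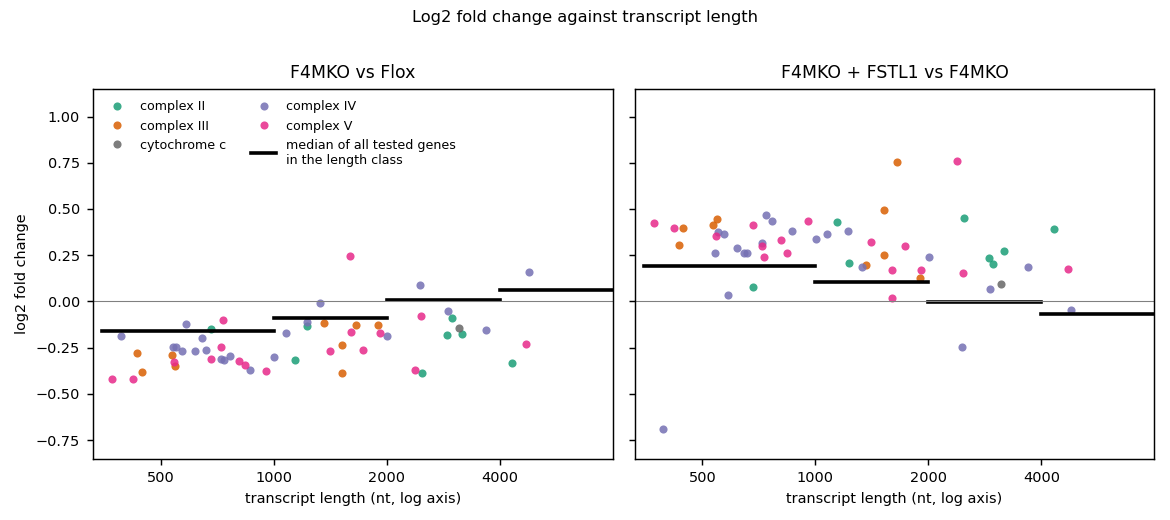
Log2 fold change of each tested member against transcript length (log axis) in F4MKO against Flox (left) and F4MKO + FSTL1 against F4MKO (right), with black bars at the median of all tested genes in each length class. The bars rise from -0.16 to 0.06 on the left and fall from 0.19 to -0.07 on the right, and most members lie below the bars on the left and above them on the right.

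Other genes of the same organelle were followed by lists. The 34 tested nuclear subunits of complex I were all below 0 in F4MKO against Flox, with a median of -0.29, and none passed. In F4MKO + FSTL1 against F4MKO all 34 were above 0, with a median of 0.34, and 8 passed, where 7.73% of all genes were higher, among them Ndufb9 at 0.52 ± 0.13. The 6 mitochondrially encoded subunits of complexes III to V had medians of -0.11 and 0.31, and 1 passed in the second comparison, the complex IV gene mt-Co3 at 0.49 ± 0.14. In that comparison 1 of the 6 lay below 0, at -0.80. The 7 mitochondrially encoded subunits of complex I had medians of 0.06 and 0.09, with 5 above 0 in each comparison, and none passed. Assembly factors and subunits of complexes III to V with other symbols (26 tested) had medians of -0.15 and 0.28, and 3 were higher in the second comparison, Uqcc3, Bcs1l and Surf1. Citrate cycle enzymes (14 tested) had medians of -0.01 and 0.13, and 1, the isocitrate dehydrogenase Idh2, was lower in F4MKO + FSTL1 at -0.52 ± 0.14. Of 14 regulators of mitochondrial genes, 3 rose in the second comparison, the estrogen-related receptor Esrra by 0.40, the mitochondrial transcription factor Tfam by 0.38 and Tfb2m by 0.35 on the log2 scale. The thresholds in this paragraph are adjusted p by edgeR.

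In bulk liver, fewer cells of a type and less RNA per cell cannot be told apart. The defining hepatocyte markers were high in every library, with a summed level of 102400 to 107600 CPM in Flox, 75190, 111400 and 108600 CPM in F4MKO replicates 1, 2 and 3, and 85960 to 103100 CPM in F4MKO + FSTL1. F4MKO replicate 1, the library with the lowest member score, also had the lowest hepatocyte sum. The 10 hepatocyte markers went both ways, from -0.85 to 0.40 on the log2 scale in F4MKO against Flox (median -0.05, none passed) and from -1.24 to 1.21 in F4MKO + FSTL1 against F4MKO (median -0.01). In the latter the serpin gene Serpina1c was higher and the cytochrome P450 gene Cyp3a11 lower, with adjusted p of 0.0014 and 0.0023 by edgeR. In F4MKO against Flox all 10 stellate cell markers (median 0.45) and all 5 tested cholangiocyte markers (median 1.11) were above 0, where most members were below. The 10 macrophage markers went both ways, from Marco at -1.41 (adjusted p of 0.139 by edgeR) to Gpnmb at 1.70, with a median of 0.11 and 3 below 0. The 10 endothelial markers had a median of -0.25, with 9 below 0 as most members were. The 6 tested lymphocyte markers had a median of 0.10, with 3 below 0. None of the stellate, endothelial or lymphocyte markers passed. The cholangiocyte markers Epcam at 2.01 and Spp1 at 2.05 and the macrophage marker Gpnmb at 1.70 did, with adjusted p of 0.036, 0.0404 and 0.0404 by edgeR. Other cells of a diseased liver also express Spp1, as well as Sox9 of the cholangiocyte list and Des of the stellate list. In F4MKO + FSTL1 against F4MKO most stellate cell, cholangiocyte and macrophage markers were lower, where most members were above 0. The 10 stellate cell markers summed to 433 to 509, 587 to 773 and 279 to 387 CPM in Flox, F4MKO and F4MKO + FSTL1, and 8 of them were lower in F4MKO + FSTL1 than in F4MKO at an adjusted p under 0.05 by edgeR. Of 10 macrophage markers 7 were lower in that comparison, with sums of 567 to 932, 737 to 843 and 344 to 526 CPM. Cholangiocyte markers summed to 50.7 to 89.0, 161 to 431 and 36.1 to 54.1 CPM, the 431 in F4MKO replicate 1, and 4 of 5 tested were lower in F4MKO + FSTL1. Of all 14379 tested genes, 1889 were lower at that threshold in F4MKO + FSTL1 against F4MKO. Endothelial and lymphocyte markers had medians of 0.11 and -0.65 in that comparison, and 1 of 10 and 0 of 6 tested passed. Adipocyte markers summed to at most 1.10 CPM in each Flox and F4MKO library and to 0.992 to 6.07 CPM in F4MKO + FSTL1. Of these 4 markers only Cidea passed the filter on low counts, at 2.34 in F4MKO + FSTL1 against F4MKO with an adjusted p under 0.05 by edgeR. The adipocyte marker Plin1 had 0 counts in F4MKO + FSTL1, so the sum does not show fat cells. The part of these cell types in the members' levels was not tested.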

How the data were processed

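Total RNA of whole liver was sequenced as 150 bp paired-end reads. The authors trimmed reads (Trim Galore 0.6.7), mapped them to mm10 (HISAT2 2.2.1) and counted them per gene (featureCounts 2.0.1), per the submitters' processing notes, and deposited the counts, 1 whole number per gene and library, not normalized. The annotation, strand setting and treatment of multi-mapping reads were not given in the sources used here. Library totals of 20656976 to 24322984 counts limit precision for the low isoforms, and each group has 3 replicates.

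Tests were run with edgeR 4.0.16 (R 4.3.3). The filter on low counts was filterByExpr, with a minimum total of 15 and a minimum count of 10, which is 0.432 CPM at the median library size. Group means were fitted over all 9 libraries together after TMM normalization, by the quasi-likelihood method (common biological coefficient of variation 0.15), and p-values were adjusted over all 14379 genes. A gene was called at an adjusted p under 0.05 and a fold change above 1.5. The script was tested on simulated data. TPM used 1 transcript length per gene. GENCODE and RefSeq on GRCm38 gave positions, shared 100-base stretches and promoters, and 95.3% of tested genes matched a length.

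Named members were those with an adjusted p under 0.05, the highest and lowest of each complex in each comparison, the core subunits and the tissue isoforms. Others, such as Atp5j2, Atp5j, Atp5l and Cox7c, were named for a count or their place in a range after their values were seen. Members and lists were chosen with earlier results of these data known. Alternatives were DESeq2 1.42.0 and its size factors, no filter, only the 6 libraries compared, the replicate number as a block, leaving out each library, and, chosen after seeing the data, library totals and a length and GC trend removed.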

Additional observations from a re-analysis of the deposited data

How the results depend on the processing

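In F4MKO against Flox, the members' median log2 fold change ran from -0.26 to -0.14 over the alternatives and from -0.36 to -0.15 when 1 library was left out, and 0 members were called in each. DESeq2 gave 1 member with an adjusted p under 0.05 (Uqcr11), 1.79% of the members beside 3.07% of all genes. Under each other alternative 0 members passed. In F4MKO + FSTL1 against Flox 0 members passed under any alternative run.

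In F4MKO + FSTL1 against F4MKO, the 5 members with an adjusted p under 0.05 (8.93%, where 7.73% of all genes were higher) became 8 with DESeq2's size factors (14.3%, all genes 8.31%), 18 with DESeq2 (32.1%, all genes 8.55%), 15 without a filter (25.0%, all genes 4.93%), 3 with the length and GC trend removed (5.36%) and 2 with library totals (3.57%), each with 1 lower, where 22.3% and 22.6% of all genes passed in either direction, and from 1 to 29 (1.79% to 51.8%) when 1 library was left out. The highest of these was without F4MKO replicate 3, where 8.44% of all genes were higher. The lowest, 1 member, came where 3.3% to 5.93% of all genes were higher. The 1 called member became 2 with DESeq2, without a filter and with the length and GC trend removed, 0 with library totals, and from 1 to 7 when 1 library was left out. Genes called in either direction were 2127 of 16092 with DESeq2, 2397 of 24008 without a filter and 2050 of 14379 with the trend removed. They were 2497 of 14379 with library totals and 2216 of 14590 without F4MKO replicate 3, which gave the 7 members. The median log2 fold change was 0.10 with library totals and from 0.19 to 0.42 when 1 library was left out. The cause of these moves was not tested beyond the way each alternative was built.

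The replicate number as a block gave 22 members with an adjusted p under 0.05 (39.3%, where 9.76% of all genes were higher) and 2 called in this comparison, where 2170 of all 14379 genes were called in either direction. It gave 0 members in each of the others. The labels tie the numbers to no animal, litter or day, and the correlations of deviations of same-numbered libraries were 0.111, 0.0919 and 0.304 in this comparison, 0.0818, 0.0422 and 0.169 in F4MKO against Flox and 0.000772, -0.0985 and 0.206 in F4MKO + FSTL1 against Flox. Not all were over the 0.1 taken to show pairing, so the block was not used. In this comparison each library correlated best with its own number, as a hint from the data.

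Changes of sign were followed only for 37 tested members, those named by adjusted p, as extremes of a complex, as core subunits or as isoforms. Of their 1776 values under an alternative, 91 changed sign, 12 of them by more than the standard error, none for a member with an adjusted p under 0.05. In F4MKO against Flox these were Sdhaf2 at 0.0241 with library totals, Sdhaf4 at 0.0172 and Atp5g2 at 0.0423 with the length and GC trend removed, and Atp5a1 at 0.0575 without F4MKO replicate 1. In F4MKO + FSTL1 against F4MKO they were Sdhaf4 at -0.16 with the length and GC trend removed, and with library totals Sdhaf4 at -0.11, Uqcrc2 at -0.0628, Cycs at -0.10, Atp5s at -0.17, Atp5a1 at -0.0280, Atp5b at -0.0195 and Atp5g1 at -0.0132.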
